A study of Homo sapiens with 2 samples.

Results

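This account describes 56 genes of human chromosome 18 in 2 melanoma cell lines, followed in the order in which they lie on the chromosome. The genes were taken from a list of 58 symbols, of which RNMT and RBBP8 are not analysed here. They are a share of the 303 genes of the chromosome that the arrays measured, and of 19775 genes in all. IGR39 was grown from a primary skin tumour without pigment, and IGR37 from a metastasis in a lymph node. Neither line carried a treatment or engineered change according to the labels, and both were cultured in DMEM with serum. Total RNA from each was hybridised to 1 Affymetrix U133 Plus 2.0 array, so no difference below has a replicate check and no test was run.

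Values are log2 expression levels, and a difference is the level in IGR37 minus that in IGR39, so that 1 stands for 2-fold. A level of log2 6 was used as the minimum for calling a gene measured above the dim range. Members were chosen by their place on chromosome 18 and selected on the measured log2 differences between these arrays, since earlier results were known when the list was drawn up. Each gene is represented by its brightest probe set, taken as the mean of the 2 arrays. The levels and differences of the members are therefore a description. All 56 genes lay on chromosome 18 in the RefSeq gene table, and their listed order matched the table apart from 3 neighbouring pairs: SMCHD1 with NDC80, ELP2 with SLC39A6, and POLI with MBD2. On this list, 21 genes belonged to the short arm, 18p, and 35 to the long arm, 18q.

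Chromosome 18 is a gene-poor chromosome that carries the tumour suppressor SMAD4, the apoptosis inhibitor BCL2 and several cadherin genes. Its genes share no common pathway, and those described here serve cell division, RNA processing, protein turnover, membrane traffic, signalling, chromatin and metabolism. Melanoma cells often gain or lose chromosomes, and transcripts of a region whose DNA copy number differs between cells tend to differ in the same direction. DNA copy number was not analysed here. In bulk RNA, a larger share of cells with a transcript and more of it per cell cannot be told apart.

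Across the arrays, 23.9% of probe sets reached log2 6 in IGR39 and 24.3% in IGR37. The 18 hybridisation spike-ins differed by between -0.14 and 0.21, and the 24 poly-A spike-ins by between -0.47 and 0.68, with a median of 0.25. Probe sets of the same gene differed with a pooled SD of 0.40. All 7 melanocyte markers measured reached log2 6 in IGR37, from 8.38 to 13.05, against 1 of 7 in IGR39, where MITF stood at 7.57. The 9 lymphocyte and macrophage markers and the 4 endothelial markers stayed below it in both lines. Of the fibroblast markers, COL1A2 led in IGR39 at 6.27 and LUM in IGR37 at 6.26, and the highest keratinocyte marker was KRT10, at 9.13 and 9.08. The part of these markers in the differences described below was not tested.

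The members were higher in the metastasis line along most of the chromosome. The metastasis line had the higher level for 48 of 56 members and the lower level for 8, with a median difference of 0.91. Of all genes, 54.5% of those at log2 6 and 50.3% at any level were higher in IGR37 by any amount. At least 2-fold higher were 25 members (44.6%), against 11.4% of the 8501 genes that reached log2 6 and 5.80% of genes at any level. None of the 56 was at least 2-fold lower, against 9.50% of genes at log2 6 and 4.85% at any level. At the smaller limit of 1.5-fold, 37 members (66.1%) were higher and 2 were lower. The same limit was passed upwards by 23.0% and downwards by 17.2% of genes at log2 6, and by 12.0% and 9.53% at any level. The median over all genes at log2 6 was 0.07. The differences of the members ran from -0.93 for ANKRD12 to 3.02 for CABLES1, with quartiles of 0.39 and 1.42. Averaging every probe set of a gene, dim ones included, brought the members' median down to 0.56. Without probe sets ending in _s_at or _x_at, 15 of the 50 members left were at least 2-fold higher.

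Of the members, 44 were at or above log2 6 in both lines, 6 reached it in the brighter line alone and 6 stayed below it in both. Among the 44, 37 were higher in IGR37, 18 of them at least 2-fold. The 6 members below the minimum were LPIN2, ANKRD12, GNAL, CEP192, POLI and PHLPP1, whose differences rest on dim probe sets. Around the 2-fold limit the members lay close together, with VPS4B at 1.01, HAUS1 at 1.01 and CEP192 at 1.03 just above it and LMAN1 at 0.96, NAPG at 0.94 and PTPN2 at 0.92 just below.

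**Figure D1:**
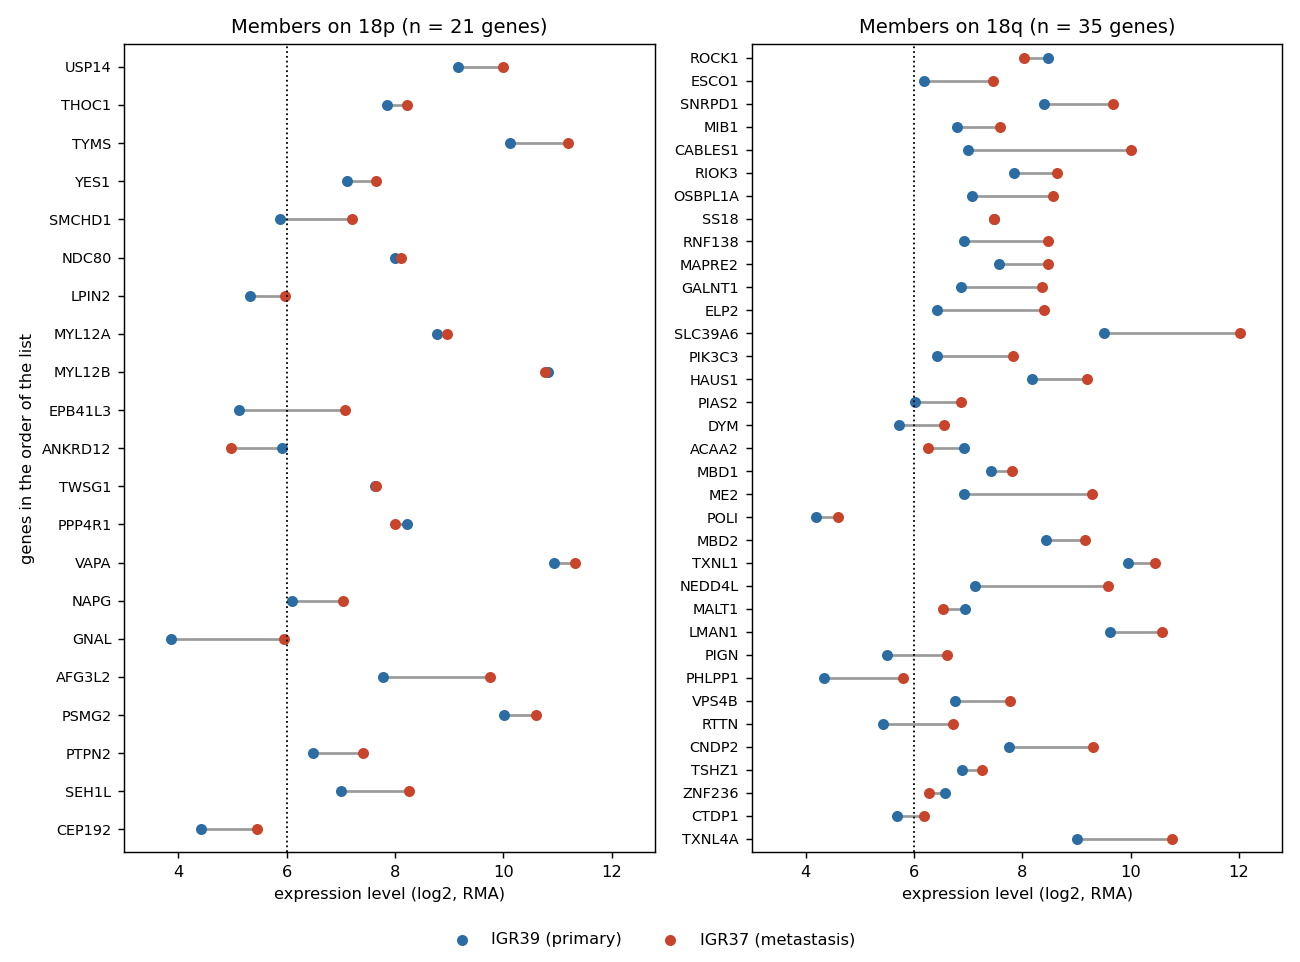
Expression levels (log2, horizontal axis) of the 21 members on 18p and the 35 on 18q, in listed order, in IGR39 (blue) and IGR37 (red), with a grey line joining the lines of a gene and a dotted line at log2 6. The red point lies to the right of the blue one in 48 of 56 genes, with the widest gap at CABLES1 and red to the left by the most at ANKRD12.

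The short arm opens with a stretch of genes that were higher in IGR37 by modest amounts. From USP14 to MYL12A, 8 members in a row were higher, with a median of 0.59. USP14, a deubiquitinase bound to the proteasome, stood at 9.16 in IGR39 and 9.99 in IGR37. This difference of 0.84 was smaller on its other probe sets at log2 6, at 0.30 and 0.70. THOC1, a subunit of the THO complex that couples transcription to mRNA export, was at 7.86 and 8.21. TYMS, which makes the thymidylate needed for DNA synthesis and is the target of fluorouracil, was at 10.13 and 11.19, and a second TYMS probe set gave nearly the same difference, 1.05 against 1.06. YES1, a kinase of the SRC family, was at 7.10 and 7.65. SMCHD1, which keeps genes of the inactive X chromosome silent, was at 5.87 and 7.21, the widest gap of this stretch. NDC80, which anchors microtubules at the kinetochore, was nearly level at 7.99 and 8.11, and its difference of 0.12 became -0.06 with the arrays centred on housekeeping genes. LPIN2, a phosphatidate phosphatase of lipid synthesis, was dim at 5.33 and 5.97.

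The neighbouring genes MYL12A and MYL12B encode regulatory light chains of non-muscle myosin II that are very alike. They were nearly level between the lines, at 8.78 and 8.96 for MYL12A and at 10.82 and 10.77 for MYL12B. Signal from one such copy on the probes of the other was not tested, so both values are uncertain. EPB41L3, a protein of the cell membrane skeleton, followed with 5.12 in IGR39 and 7.09 in IGR37, a gap of 1.96 that its other probe set at log2 6 put at 2.52.

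The middle of 18p held members that differed in both directions. ANKRD12, a nuclear protein that binds co-activators of nuclear receptors, stood at 5.91 in IGR39 and 4.98 in IGR37, the lowest difference of the list at -0.93, and it was below log2 6 in both. TWSG1, a secreted protein that binds BMPs, was at 7.63 and 7.65, nearest to 0 on this arm, with -0.05 after removal of a lowess trend and -0.15 with housekeeping centring. PPP4R1, a regulatory subunit of the phosphatase PP4, was at 8.21 and 8.01. VAPA, which ties the endoplasmic reticulum to other membranes, was at 10.93 and 11.33, but that probe set has the suffix _x_at, which marks probes that may hybridise to other genes, and the other at log2 6 differed by -0.14. NAPG, which helps to take apart SNARE complexes after membrane fusion, was at 6.09 and 7.03.

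Towards the centromere the differences grew again, and from VAPA to CEP192 8 members in a row were higher in IGR37, with a median of 0.98. GNAL, a G protein alpha subunit of olfactory neurons, went from 3.86 to 5.95 and so lay in the dim range. AFG3L2, a protease of the inner mitochondrial membrane, had levels of 7.78 and 9.75, a 3.93-fold gap, and its other probe set at log2 6 gave 1.60. PSMG2, a chaperone of proteasome assembly, was at 10.01 and 10.61. PTPN2, a phosphatase that dampens JAK and STAT signals, was at 6.49 and 7.41. SEH1L, a nucleoporin that also acts at kinetochores, was at 7.003 and 8.25. CEP192, which recruits material to the centrosome before mitosis, was at 4.43 and 5.46. Over the 21 members of 18p the median was 0.64, with 7 at least 2-fold higher and 14 within 2-fold.

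The long arm began with an exception. ROCK1, a kinase that drives actomyosin contraction, was lower in IGR37, at 8.47 and 8.04, and both its other probe sets at log2 6 were also at or below 0, at -0.28 and -0.0005. The next 6 members, ESCO1 to OSBPL1A, were all higher, with a median of 1.28. ESCO1, which acetylates cohesin, was at 6.18 and 7.46. SNRPD1, a core protein of the spliceosomal small nuclear particles, was at 8.39 and 9.67, although its second probe set gave a smaller difference of 0.55. MIB1, a ubiquitin ligase that makes Notch ligands active, was at 6.80 and 7.59.

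CABLES1, an adaptor that links cyclin-dependent kinases to other kinases, showed the largest difference of all members. It stood at 6.99 in IGR39 and 10.01 in IGR37, which is 8.12-fold, and its 2 other probe sets at log2 6 gave 2.41 and 2.77. RIOK3, an atypical kinase of ribosome maturation, was at 7.84 and 8.64, with other probe sets from -0.21 to 1.04. OSBPL1A, an oxysterol-binding protein of late endosomes, was at 7.08 and 8.56. SS18, a subunit of the BAF chromatin remodelling complex and the fusion partner in synovial sarcoma, was level at 7.48 in both and lay nearest to 0 on the long arm.

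A long run of higher genes occupied the middle of 18q. From RNF138 to DYM, 9 members in a row were higher in IGR37, with a median of 1.40. Among all measured genes at log2 6, 22 in a row from TRAPPC8 to SMAD2 were higher, a run that ended at SMAD7 and so before DYM. RNF138, a ubiquitin ligase that acts at DNA breaks, was at 6.92 and 8.48, and MAPRE2, which binds the growing ends of microtubules, at 7.57 and 8.47. GALNT1, which starts O-linked glycan chains, was at 6.87 and 8.36, and all 3 of its other probe sets at log2 6 were higher too, by 1.37 to 1.81. PIK3C3, the lipid kinase VPS34 that autophagy and endosome sorting need, was at 6.42 and 7.82, its remaining probe sets being dim in both lines.

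The neighbours SLC39A6 and ELP2 lay within this run. SLC39A6, which encodes the zinc importer ZIP6, had levels of 9.501 in the primary line and 12.02 in the metastasis line, a 5.74-fold gap, and its 3 other probe sets at log2 6 gave 2.63 to 2.89. ELP2, a subunit of the Elongator complex that modifies transfer RNAs, was at 6.42 and 8.40, while its other probe set at log2 6 gave 0.47. The genes are read in opposite directions from starts 559 bases apart in GRCh38.p14, away from each other, so that both promoters lie between the starts. The 250 bases before each start, from RefSeq and on the strand of the gene, are shown because these neighbours were high together, with every CG dinucleotide in capitals.
SLC39A6: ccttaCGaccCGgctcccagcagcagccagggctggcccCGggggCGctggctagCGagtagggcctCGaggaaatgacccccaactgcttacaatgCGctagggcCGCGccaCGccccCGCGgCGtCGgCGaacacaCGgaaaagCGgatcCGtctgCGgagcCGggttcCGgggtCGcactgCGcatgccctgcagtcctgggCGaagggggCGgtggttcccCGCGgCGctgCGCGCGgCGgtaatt
ELP2: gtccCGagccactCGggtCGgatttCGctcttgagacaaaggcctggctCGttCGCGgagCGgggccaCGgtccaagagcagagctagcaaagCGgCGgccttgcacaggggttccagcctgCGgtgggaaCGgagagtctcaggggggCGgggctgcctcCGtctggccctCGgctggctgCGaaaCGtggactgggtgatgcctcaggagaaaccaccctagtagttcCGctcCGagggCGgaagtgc
The window of SLC39A6 is chr18:36129341-36129590 on the minus strand and that of ELP2 is chr18:36129649-36129898 on the plus strand, with 58 bases between them. They hold 32 and 21 CG dinucleotides, against a median of 22 over the 83 windows of the members and 11 over all 35116 windows of the table.

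The promoter of ANKRD12, the member with the lowest difference, is given for contrast, again with CG in capitals, and it holds 48 of them.
ANKRD12: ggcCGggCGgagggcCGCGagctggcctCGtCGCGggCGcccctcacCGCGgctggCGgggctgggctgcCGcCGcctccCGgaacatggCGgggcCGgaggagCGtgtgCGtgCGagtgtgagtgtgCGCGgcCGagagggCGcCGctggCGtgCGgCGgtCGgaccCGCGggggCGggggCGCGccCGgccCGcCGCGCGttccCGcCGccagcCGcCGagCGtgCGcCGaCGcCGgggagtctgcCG
This window is chr18:9137313-9137562 on the plus strand. Among the 52 members with a window in the table, the 28 whose richest window held at least 27 CG dinucleotides had a median difference of 0.88, and the other 24 had one of 0.93.

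Short motifs were searched on both strands of the 250 bases, and a gene was counted when any of its windows held one. CATGTG, the core of the M-box that MITF can bind, occurred for 7 members (13.5%), against 11.5% of all genes in the table. The palindrome CACGTG was found for 9 members (17.3%) and 7.73% of all genes. TGANTCA, the motif of AP-1 factors, was found for 4 members (7.69%) and 8.06% of all genes. A gene with more windows has more room for a match, so shares of windows were taken as well. CATGTG was in 8.43% of member windows and 9.42% of all windows, the reverse of its order by gene. For CACGTG the shares were 13.3% and 6.34%, and for TGANTCA 4.82% and 6.57%. CACGTG itself contains a CG, and the member windows held a median of 22 CG dinucleotides, against 11 over all windows. The part of this CG content in the shares of CACGTG was not tested. Matches of CATGTG and CACGTG cannot share bases, whereas CATGTG and TGANTCA can share a TG. For CABLES1, 1 of its 3 windows held CATGTG and CACGTG but no TGANTCA. That window is shown with the motifs in capitals because this gene had the largest difference.
CABLES1: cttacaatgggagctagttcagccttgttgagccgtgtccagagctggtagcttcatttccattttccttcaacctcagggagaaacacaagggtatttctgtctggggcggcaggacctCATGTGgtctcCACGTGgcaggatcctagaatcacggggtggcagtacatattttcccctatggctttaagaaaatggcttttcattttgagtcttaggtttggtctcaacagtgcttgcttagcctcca
That window is chr18:23155575-23155824 on the plus strand, before the start that lies farthest along the gene, and these matches describe the letters only.

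Further along 18q came HAUS1, a subunit of the augmin complex of the mitotic spindle, at 8.17 and 9.18. PIAS2, a SUMO ligase, was at 6.02 and 6.87, and DYM, a Golgi protein of skeletal growth, at 5.73 and 6.55. ACAA2, the thiolase that ends each round of mitochondrial fatty acid oxidation, went the other way, at 6.92 and 6.26. Its difference of -0.66 was the lowest among the members of the long arm. With probe sets ending in _s_at or _x_at left out it was -0.08, on a probe set below log2 6 in both lines. The remaining ACAA2 probe set, also dim, differed by -0.84.

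The methyl-CpG readers MBD1 and MBD2 were somewhat higher in IGR37. MBD1 was at 7.42 and 7.80, its other probe set at log2 6 giving 0.32, and MBD2 was at 8.44 and 9.15, with its other probe sets dim. Between them lies ME2, the mitochondrial malic enzyme that makes pyruvate from malate, at 6.92 in IGR39 and 9.29 in IGR37. This 5.18-fold gap was repeated on both its other probe sets at log2 6, at 2.39 and 2.86. POLI, a polymerase that copies past damaged bases, was dim at 4.18 and 4.60. TXNL1, a thioredoxin-like protein of the proteasome, was at 9.95 and 10.44.

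NEDD4L, a ubiquitin ligase that removes sodium channels from the membrane, was at 7.12 and 9.57, but its other probe set at log2 6 gave 0.62 in place of 2.46. MALT1, a protease of NF-kB signalling, was lower in IGR37, at 6.93 and 6.53. That probe set has the suffix _x_at, and the other at log2 6 differed by -0.19. LMAN1, which carries glycoproteins from the endoplasmic reticulum to the Golgi, was at 9.62 and 10.58, with 0.97 and 1.34 on its other probe sets.

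In the distal part of the arm, 7 members from LMAN1 to TSHZ1 were higher in a row, with a median of 1.11. PIGN, an enzyme of GPI anchor synthesis, was at 5.49 and 6.60, and PHLPP1, a phosphatase that switches off AKT, was dim at 4.34 and 5.80. VPS4B, the ATPase that takes apart ESCRT filaments, was at 6.75 and 7.76. RTTN, needed for building centrioles, was at 5.43 and 6.71, and CNDP2, a cytosolic dipeptidase, at 7.75 and 9.30. TSHZ1, a zinc finger factor of development, was at 6.89 and 7.26. ZNF236, also a zinc finger protein, was lower in IGR37, at 6.57 and 6.27.

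At the end of the chromosome CTDP1, the phosphatase that resets the tail of RNA polymerase II, was at 5.68 and 6.18. TXNL4A, a small protein of the U5 particle of the spliceosome, was at 9.003 and 10.76, and its remaining probe sets were dim, the brighter of them at 5.09 and 5.05, so that without _s_at probe sets its difference was -0.04. Over the 35 members of 18q the median was 1.01, with 18 at least 2-fold higher and 17 within 2-fold. With every probe set of a gene averaged, the median was 0.57 on 18q and 0.47 on 18p.

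Groups of members with like roles differed in how far they lay from 0. The 6 genes of ubiquitin and protein quality were all at least 1.5-fold higher, with a median of 1.20 and a range from 0.60 to 2.46. The 9 genes of membrane traffic and glycosylation were all higher, from 0.40 to 1.49, with a median of 1.01. All 5 genes of cell division were higher, with a median of 1.03, and so were all 4 of RNA processing, with a median of 1.52. The RNA processing median depended on probe sets ending in _s_at. Without these and the _x_at probe sets, ELP2 differed by 0.47, SNRPD1 by 0.55 and TXNL4A by -0.04 on a dim probe set. THOC1 stayed at 0.36. Of 7 metabolic genes, 6 were higher and the median was 1.06. The 10 signalling genes had a median of 0.83, with 2 of them lower. The 10 genes of chromatin and DNA had a median of 0.40 with 3 lower, and the 5 of myosin and cytoskeleton had one of 0.18 with 2 lower. These groups were formed with the results known and hold 4 to 10 genes, so the order of their medians is a description only.

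Partners of the members that are encoded on other chromosomes offered a comparison within the same complexes and pathways. The 50 measured partners had a median difference of 0.09, with 2 of them above and 2 below the 2-fold limits, while the 16 members tied to them had a median of 0.82, with 7 at least 2-fold higher. In 12 of 13 complexes or pathways the member, or the median of its members, lay above the median of the partners. The partners THOC6, MYL9, SHMT1, NAPB and SPG7 were below log2 6 in both lines. SPG7, at 3.58 and 3.69, was the only partner of AFG3L2. With genes below log2 6 left out, the count was 11, and AFG3L2 had no partner to be set against. The members were chosen with earlier results known, so this count is a description only. ELP2 differed by 1.97, against -0.19 to 0.55 for the other Elongator genes ELP3, ELP4, ELP5 and ELP6. The other ELP2 probe set at log2 6 gave 0.47, within the range of these partners. HAUS1 differed by 1.01, while the 6 other augmin genes measured ran from -0.41 to 0.42. SNRPD1 differed by 1.28, and the other 6 core Sm genes from -0.12 to 0.86. Its second probe set gave 0.55, which also lies within the range of its partners. PIK3C3 differed by 1.40, and its partners PIK3R4, BECN1, UVRAG and ATG14 by -0.34 to 0.59.

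In the nuclear pore subcomplex, SEH1L differed by 1.25 and its 7 partners by -0.9998 to 0.95. Proteasome assembly was the exception, since PSMG2 differed by 0.60 and the partners PSMG1, PSMG3 and PSMG4 by 0.35 to 1.48. For the kinetochore gene NDC80, at 0.12, and the THO gene THOC1, at 0.36, 1 partner each had a higher signed difference than the member, SPC25 at 0.67 and THOC7 at 0.65. Myosin II genes were spread most widely, from MYH9 at -1.90 to MYH10 at 4.71, with MYL12A, MYL12B and ROCK1 between -0.44 and 0.18. No error of these gaps can be given with 1 array per line.

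**Figure D2:**
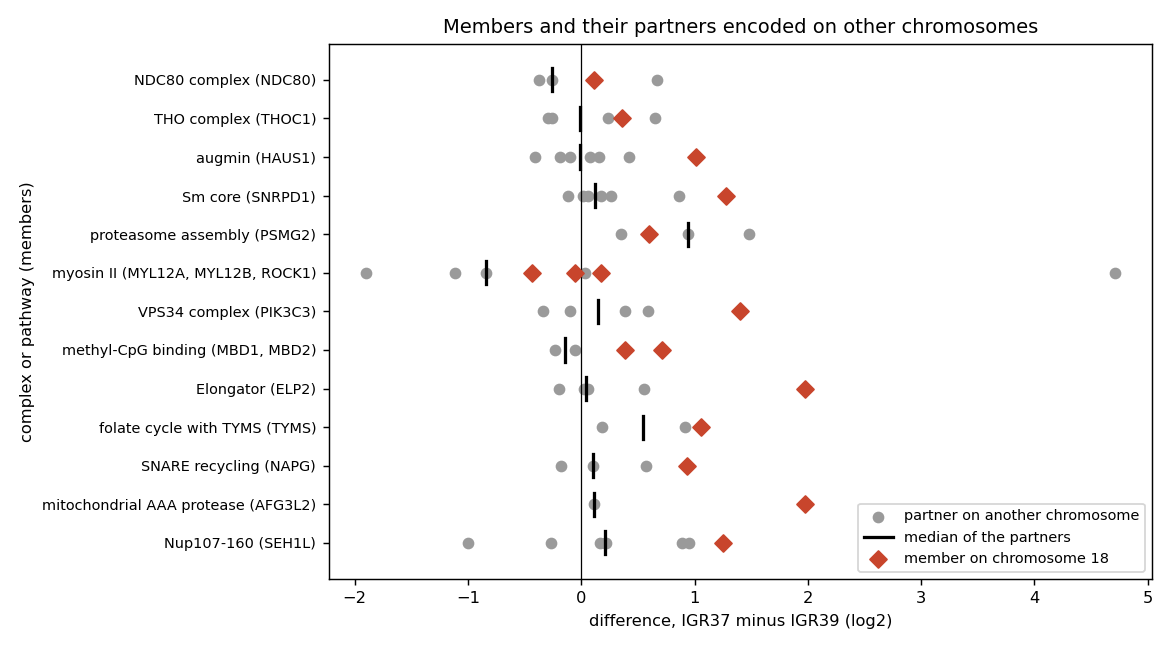
Differences between the lines (log2, IGR37 minus IGR39) for members on chromosome 18 (red diamonds), their partners on other chromosomes (grey points) and the median of the partners (black bar) in 13 complexes or pathways. The diamonds lie to the right of the bar in 12 of 13 rows when the members of a row are taken by their median, the exception being proteasome assembly.

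The remaining genes of the chromosome were also mostly higher in IGR37. Of the 116 genes of chromosome 18 at or above log2 6, 66 are not members, and their median difference was 1.03, with 34 of them 2-fold or more higher in the metastasis line and 9 as far in the other direction. The 116 genes together had a median of 0.95, with 100 higher in IGR37 and 56 (48.3%) at least 2-fold higher. A gene can reach log2 6 through its brighter line alone, but with the minimum set on the mean of both lines the median over 99 genes was 0.95 as well. With all 303 genes and no minimum, it was 0.15, the further genes being below log2 6 in both lines, and the median over all 19775 genes was then 0.0025.

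Large differences in the opposite direction occurred among genes that are no members. RAB27B, a GTPase of secretory vesicles, was at 8.15 in IGR39 and 3.58 in IGR37. ATP8B1, a phospholipid flippase, was at 6.50 and 2.90, and CDH2, which encodes N-cadherin, at 8.90 and 5.72. SMAD7, an inhibitor of TGF-beta signalling, was at 7.11 and 4.63, against 7.61 and 8.56 for SMAD2 and 5.71 and 7.12 for SMAD4 close by. RAB31 was at 8.57 and 6.16, ALPK2 at 6.43 and 3.52, and PMAIP1, which encodes the apoptosis activator NOXA, at 9.84 and 7.82. Of these 7 genes, ATP8B1, ALPK2 and PMAIP1 lie around the member MALT1, which was lower as well. The members NEDD4L and LMAN1 lie in the same stretch and were higher, by 2.46 and 0.96.

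At least 4-fold higher in IGR37 were MBP at 4.41 and 10.56, LAMA1 at 3.15 and 7.45, EMILIN2 at 5.12 and 8.72, CDH19 at 3.19 and 6.12 and MOCOS at 6.77 and 9.38. IMPA2, IMPACT, HDHD2, DIPK1C, PTGR3 and PARD6G also passed this limit, by 2.02 to 2.46. In a list of 28 chromosome 18 genes known from tumours or melanocytes, 27 were measured and 15 reached log2 6. Of these 15, 8 (53.3%) passed the 2-fold limit upwards and 5 (33.3%) downwards. The shares were 48.3% and 7.76% over the chromosome 18 genes at log2 6, and 11.4% and 9.50% over all genes at that level. The list was chosen with earlier results known. BCL2 was just below the minimum and nearly level, at 5.89 and 5.90.

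Taken in order, most genes lay above 0, with lower ones at many places between them. In 109 of 110 windows of 7 neighbouring genes at log2 6, the median was above 0. It was above the median of all genes in 107 and reached 2-fold in 50. With 100 of the 116 genes higher in IGR37, most windows would lie above 0 in any order, and neighbouring windows share genes. The count above 0 therefore says little about order along the chromosome. The highest window median, 1.83, lay at RPRD1A, in the window from INO80C to MOCOS that holds SLC39A6 and ELP2. The lowest, -0.40, was the window from ATP8B1 to PMAIP1 centred on MALT1, and it is the difference of MALT1 itself, on an _x_at probe set. The windows of 18p from NDUFV2 to PIEZO2 and from TWSG1 to CHMP1B had medians of 0.02, and that from SMAD2 to ME2 had one of 0.39. By arm, the 33 genes of 18p had a median of 0.87 and the 83 of 18q one of 1.01.

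**Figure D3:**
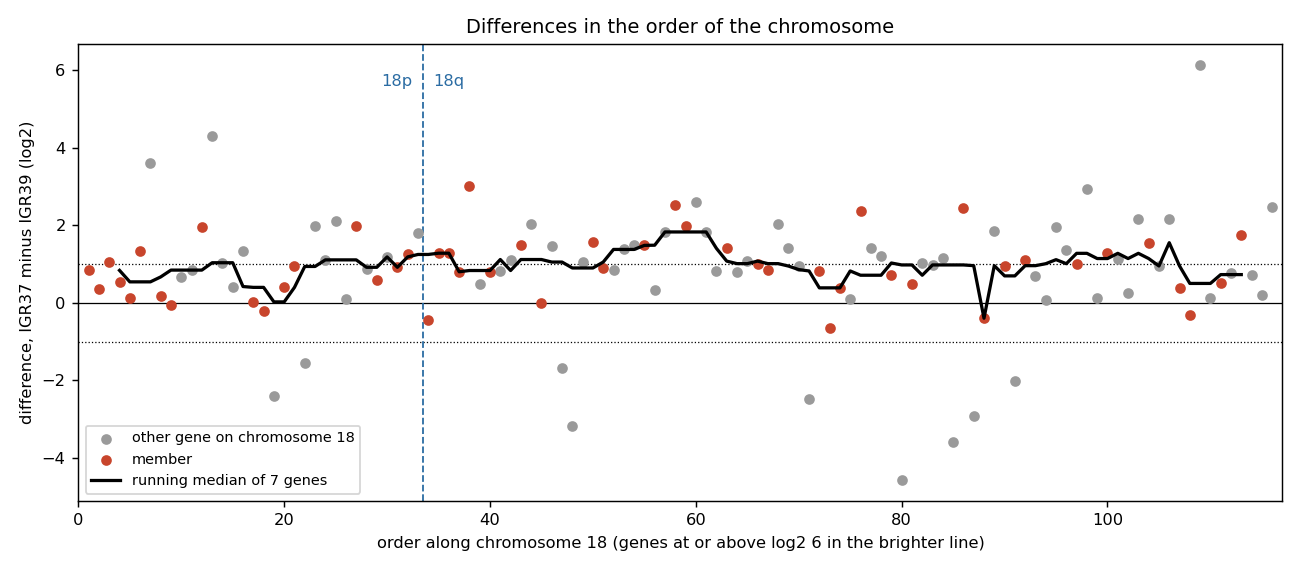
Difference between the lines (log2, vertical axis) for the 116 genes of chromosome 18 at or above log2 6 in the brighter line, in chromosome order, with members in red, other genes in grey, the running median of 7 genes in black, dotted lines at 2-fold and a dashed line between the arms. The running median stays above 0 in 109 of 110 windows and is highest, at 1.83, in the middle of 18q.

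Among the 22 autosomes, chromosome 18 had the highest median difference. Chromosome 13 followed at 0.69 over 156 genes, of which 45 (28.8%) were at least 2-fold higher in IGR37. Chromosome 10 had the lowest median, -0.50 over 318 genes, with 19 genes (5.97%) past the 2-fold limit upwards and 78 (24.5%) downwards. The medians of the autosomes other than 10, 13 and 18 lay between -0.36 and 0.50. Chromosome 18 kept the highest median with a minimum of log2 5 or 7 or none, and with every probe set averaged. It was also highest without probe sets ending in _s_at or _x_at, and after removal of a lowess trend. Centring on array medians or housekeeping genes takes the same amount from every gene, so it cannot change this order. The differences between chromosomes were not tested, since genes of 1 pair of arrays are not replicates.

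**Figure D4:**
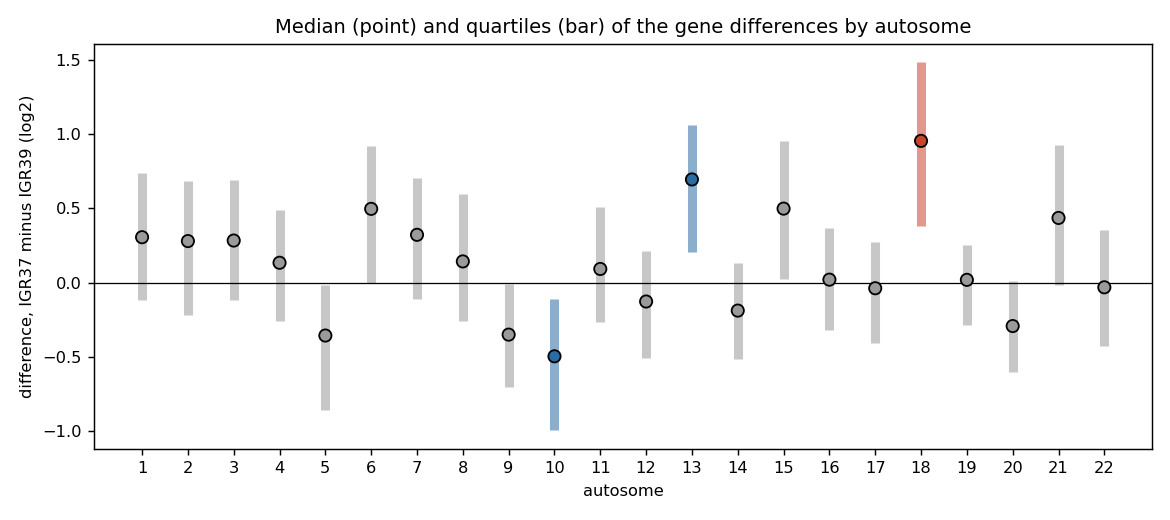
Median (points) and lower and upper quartile (bars) of the differences (log2, IGR37 minus IGR39) of genes at or above log2 6 on each autosome, with chromosome 18 in red and chromosomes 10 and 13 in blue. Chromosome 18 lies highest at 0.95 and chromosome 10 lowest at -0.50. The lower quartile is above 0 for chromosome 18, at 0.38, and also for chromosomes 13 and 15, at 0.20 and 0.02.

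Probe sets that were not used for the gene values gave a second reading of the same RNA. The 56 members had 178 probe sets, and 41 of the 122 not kept reached log2 6, in 28 members. Of these 41, 37 (90.2%) had the sign of the kept probe set, 35 were higher in IGR37 and 19 were at least 2-fold higher, with a median of 0.89. Over all genes, 84.6% of 4651 such probe sets had the sign of the kept one, and their median was 0.09. The shares of those 4651 that were higher, or at least 2-fold higher, were not counted. The probe sets of a gene share its RNA and its array, so this covers the probes and not the culture. In CABLES1, SLC39A6, ME2, GALNT1 and AFG3L2 all probe sets at log2 6 were at least 2-fold higher in IGR37, while ELP2, NEDD4L and SNRPD1 had 1 that was at least 2-fold higher and 1 that was not. For 22 members only 1 probe set reached log2 6, among them PIK3C3, TXNL4A, CNDP2 and RTTN.

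**Figure D5:**
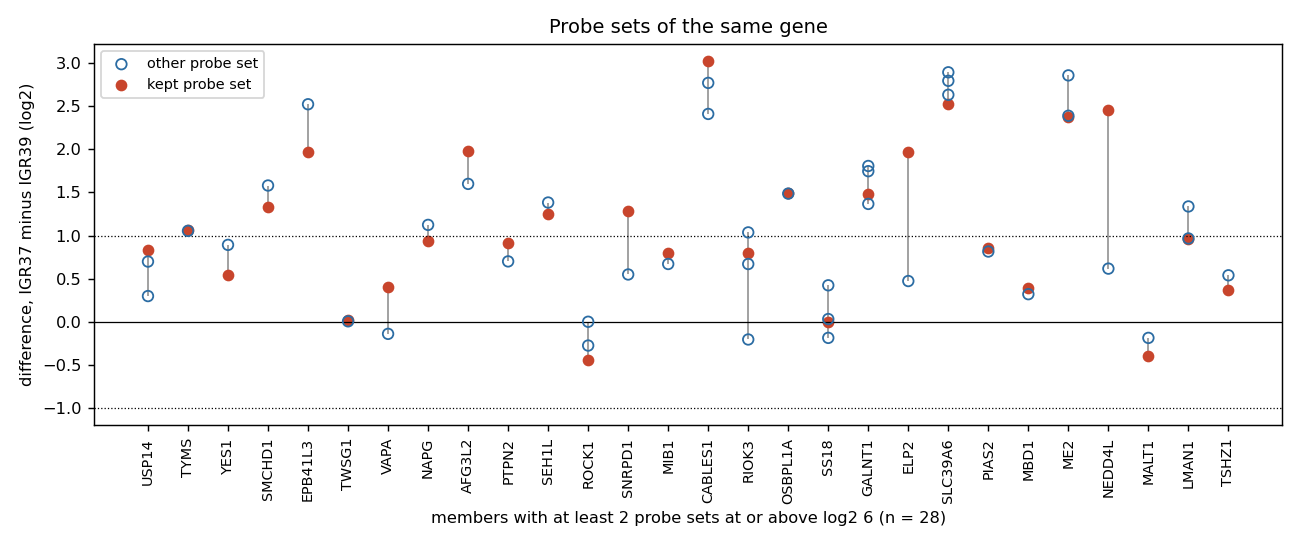
Differences (log2, IGR37 minus IGR39) of every probe set at or above log2 6 for the 28 members with at least 2 of them, the kept probe set in red and others as open blue circles, with dotted lines at 2-fold. Most genes keep 1 side of 0, and the widest gaps are those of NEDD4L and ELP2.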

How the data were processed

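Deposited by the authors was 1 log2 value for every probe set and array. RMA and affy are named per the submitters' processing notes, without versions. RMA subtracts background and makes array distributions alike, so overall brightness is removed and differences between low levels are compressed. Of 54675 probe sets, 41091 had 1 symbol in the platform annotation, updated through gene identifiers to RefSeq (GRCh38.p14), and 41037 matched. Those with several symbols (1801) or none were not used. The gene table supplied chromosomes and gene order, and the arm boundary was set before ROCK1.

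The brightest probe set of a gene, by its mean level, was kept. Differences, counts and medians were computed with no test, since each line had 1 array, and precision is limited by this number. The members and lists were chosen with earlier results of these data known. All members could be named, with non-members taken from the lists of partners and other genes or named when at least 4-fold apart. The calculation was tested on simulated data, with known shifts put on chromosome 18 and on genes picked at random. This checks only that the steps return such shifts, and it bears on none of the measured differences. Alternatives were minimum levels of log2 5, 7 or none, averaging probe sets, leaving out those ending in _x_at or _s_at, and centring by array medians, by a lowess trend of span 0.3 or by 24 housekeeping genes of 29 listed. Promoter windows came from RefSeq (GRCh38.p14). Python 3.11.15, numpy 2.4.6, pandas 2.3.3 and statsmodels 0.14.6 were used.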

Additional observations from a re-analysis of the deposited data

How the results depend on the processing

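With the mean over a gene's probe sets the medians were 0.56 for the members, 0.47 for 18p and 0.57 for 18q, with 0 members at least 1.5-fold lower, and the cause was not tested. Leaving out the _x_at and _s_at probe sets left 50 members, with medians of 0.75 over all and 0.79 on 18q and 15 members at least 2-fold higher, and TXNL4A turned to -0.0363 on a dim probe set. Centring on housekeeping genes, which takes 0.17 from every difference, gave 0.73 for the members, 0.47 for 18p, 0.84 for 18q and 0.78 for the chromosome, with 1 member at least 2-fold lower. Removing the lowess trend gave 0.90 on 18q. A minimum of log2 7 gave 1.28 on 18q and 0 members at least 1.5-fold lower. With a minimum of log2 6 in the brighter line or in the mean of both lines, both chosen after seeing the data, 1 member was at least 1.5-fold lower. Over chromosome 18 the median became 0.82 with log2 5 as the minimum, and 0.15 with none. The member lay above its partners in 11 to 13 complexes under these alternatives. Where a minimum was set, genes below it were left out, so that fewer than 13 complexes could be counted. Centring on the array medians moved no median by 0.1 or more and no count by over 1.5 times. No paired analysis was possible because each line has 1 array and no test was run.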
